A study of Mus musculus with 9 samples.

Results

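RNA from untreated cells labelled HC11, a mouse mammary epithelial line, was profiled in 3 libraries named Ctrl 1, Ctrl 2 and Ctrl 3, out of 9 libraries in the series. They were chosen by the label of the treatment alone. The labels give the strain as C57BL/6, and name DMEM with 10% fetal bovine serum and penicillin-streptomycin, at 37 °C in 5% CO2, as the culture. They name no lactogenic hormone. The other 6 libraries, EpPT1 and EpPT2 (3 each), came from the same line after exposure to 660 nm light and were not analysed here, so nothing below compares groups. Although human cells are named in the title of the series, the organism label and the gene identifiers are those of mouse. Nothing in the labels says whether the 3 libraries came from separate cultures, so the spread between them may be technical.

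HC11 is known as a clone of the COMMA-1D line, taken from the mammary gland of a pregnant BALB/c mouse. The strain given in the labels is a different one, and the strain of the cells was not tested. HC11 is widely used because it makes beta-casein when given prolactin and a glucocorticoid. Mammary ducts have an inner luminal layer, marked by the simple keratins Krt8 and Krt18 and by Gata3 and Elf5, and an outer basal layer, marked by Krt5, Krt14 and Trp63. Prolactin acts through its receptor Prlr, the kinase Jak2 and the transcription factor Stat5a, which turn on milk genes together with the glucocorticoid receptor.

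In the genes expressed, the untreated libraries matched the label of the line in part. Simple keratins were abundant in each of them, but Gata3, Elf5 and Tfap2c had 0 counts in all 3, Cdh1 and Prlr were close to 0, and basal markers were low. The milk gene Csn2 also had 0 counts, which is not set against the label, because no lactogenic hormone is named. Alb and Afp, the main plasma proteins of adult and fetal liver, were among the genes present, with Foxa2 and Gata4, transcription factors of the gut and liver lineage. Most other liver genes were not: in lists chosen after the values were seen, 8 of 40 secreted and metabolic liver genes (20%) were present. Of 22 endoderm factors 13 were (59.1%), beside 48.2% of protein-coding genes. Foxa1 and Sox9 among them are also counted as mammary lineage factors. The liver genes Hnf4a and Ttr were at or close to 0. The libraries are therefore called here the untreated libraries labelled HC11, and no other cell type name is given to them.

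The libraries held 15867162, 16095370 and 14768299 counts over 54532 genes. Levels are in CPM, the count of a gene divided by its library's total, times 1000000. Levels of different genes are compared only as CPM per kilobase of the deposited gene length, because a longer transcript gives more reads. A gene was called present at 1 CPM or more in each library, and not detected at 0 counts in all 3. A count of 0 allows up to 3 counts, which is 0.189, 0.186 and 0.203 CPM in Ctrl 1, 2 and 3 and covers counting error only. By this rule 11676 genes (21.4%) were present, among them 10554 of 21918 protein-coding genes (48.2%), and 30413 genes (55.8%) were not detected. The 48.2% of protein-coding genes is the share to set beside each list count below. The middle of the present genes was 7.58 CPM per kilobase, with quartiles of 2.99 and 19.5.

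Mitochondrial genes and genes of the translation machinery were prominent among the most abundant. The mitochondrial mt-Co1, a subunit of cytochrome c oxidase, stood at 16109, 21680.3 and 56199.7 CPM in Ctrl 1, Ctrl 2 and Ctrl 3. The translation elongation factor Eef1a1 stood at 7919, 6206 and 3800.2 CPM, in the reverse order of libraries. Cytoplasmic actin, Actb, at 3918, 3768 and 3429 CPM, differed little between libraries. The 30 genes of highest mean CPM took 9.35%, 9.83% and 13.0% of the counts, the most in Ctrl 3. With mitochondrial genes left out, the mean share was 7.64% with an SD of 0.142% over libraries. The higher share of Ctrl 3 thus lay in its mitochondrial counts.

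Length changed which genes led. By CPM, the 30 highest were 5 mitochondrial genes, 6 ribosomal protein genes and 19 others, with a median length of 2799 bases. By CPM per kilobase, they were 8 mitochondrial genes, 11 ribosomal protein genes, 4 pseudogenes and 7 others, with a median length of 1091 bases, and 15 genes were in both sets. The short transcripts that entered per kilobase include S100a11, a calcium-binding protein, at 1933 ± 509 CPM per kilobase (mean ± SD, n = 3), and B2m, the light chain of MHC class I, at 1514 ± 409.9. Long transcripts that led only by CPM include the matrix glycoprotein Fn1, the proteoglycan Dcn and the X-inactivation RNA Xist.

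**Figure D1:**
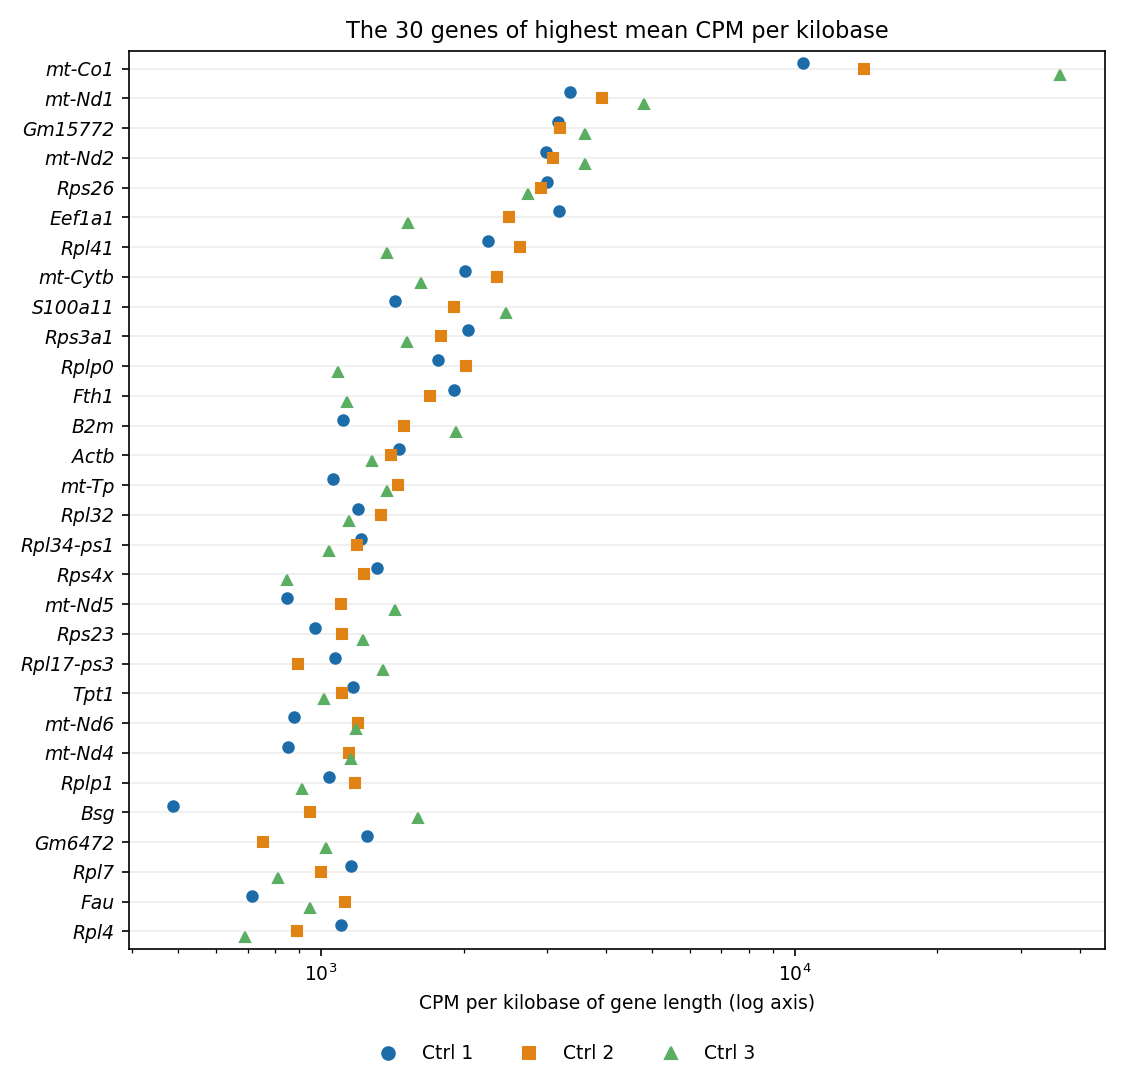
Mean-ranked 30 genes of highest CPM per kilobase of gene length (log axis), 1 symbol per library. mt-Co1 stands above all others in each library, and its Ctrl 3 value lies farthest to the right.

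The other abundant genes by CPM were mostly housekeeping genes. The chaperone Hspa8 stood at 3657, 1836 and 3336 CPM, lowest in Ctrl 2. The poly(A)-binding protein Pabpc1 stood at 4578, 4146 and 3138 CPM and the glycolytic aldolase Aldoa at 1147, 2639.8 and 3024 CPM. The amino acid carrier Slc38a2 stood at 1194, 1175 and 5322 CPM, so its place among the 30 rests on Ctrl 3. The rest of the set were Eef2, Tpt1, Ncl, Hnrnpu, Hsp90ab1, Hsp90aa1, Atp5b, Rack1, Bsg and Ldha, genes of translation, RNA binding, protein folding and energy metabolism.

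All 79 protein-coding genes with the standard symbols of ribosomal proteins, like-named paralogs left out, were present and together took 6.68% of counts on average. The lowest of them was Rpl24, at 3.43 ± 2.48 CPM, against a median of 696 CPM. Of 299 ribosomal protein pseudogenes 61 were present. Whether reads of Rpl24 were counted to such copies was not tested, so its level is uncertain. Genes of the mitochondrial genome took 2.86%, 3.62% and 7.48% of counts in Ctrl 1, 2 and 3, and mt-Co1 alone made up 56.3%, 59.8% and 75.1% of these. The mitochondrial mt-Atp6 was far lower, at 108 ± 119 CPM per kilobase against 4033 ± 736 for mt-Nd1. Also low were mt-Co2, mt-Co3, mt-Nd3, mt-Nd4l and mt-Atp8, with means of 74.7, 67.4, 8.32, 7.68 and 4.95 CPM per kilobase. The nuclear pseudogenes Gm29216 and Gm10925 on chromosome 1 stood at 22.9, 32.0 and 235 and at 34.9, 41.6 and 87.5 CPM, and mt-Atp6 at 21.8, 32.1 and 167 CPM. Which mitochondrial gene each pseudogene copies was not tested. Nuclear copies can share reads with mitochondrial genes, so the levels of these low genes, of the copies and the share of mt-Co1 are uncertain. The level of Gm15772, a predicted pseudogene among the highest per kilobase at 3327 ± 248, is uncertain too.

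All 4 luminal keratins were present, against 48.2% of protein-coding genes. Krt18 (chromosome 15, ENSMUSG00000023043) and Krt8 (ENSMUSG00000049382) pair to form the intermediate filaments of simple epithelia, and lie near each other at chr15:102028180-102032027 and chr15:101996698-102004482 on GRCm38. Krt18 stood at 804, 963 and 1016 CPM and Krt8 at 568, 868 and 694 CPM in Ctrl 1, 2 and 3. Their levels per kilobase were 646 ± 76.8 and 363 ± 77.1 CPM per kilobase, in the top 1% of present genes (percentiles 99.6 and 99.1). Krt19 stood at 249, 560.2 and 575 CPM and Krt7 at 562, 732 and 881 CPM, both lowest in Ctrl 1. Among the 11 other keratins Krt20, best known from gut and urothelium, stood at 88.1, 108 and 120.2 CPM, Krt80 at 89.4, 202 and 152 CPM and Krt10 at 4.10, 4.10 and 4.2 CPM, while Krt4 and Krt1 were not detected.

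Junction genes were mostly present, but the classical epithelial cadherin was not. Of 29 adhesion and junction genes, 19 were present (65.5%, beside 48.2% of protein-coding genes) and 0 were at 0 counts in all libraries. The adherens junction gene Ctnna1 led per kilobase at 219.9 ± 29.0, followed by the tight junction claudin Cldn3 at 121 ± 49.3 CPM per kilobase. Cldn3 stood at 80.7, 183 and 193 CPM, and the desmosomal plaque gene Dsp at 272, 420.0 and 481 CPM. Epcam (chr17:87635979-87651106), an adhesion molecule of epithelia, stood at 35.2, 18.4 and 37.4 CPM, lowest in Ctrl 2 and at percentile 68.5 of present genes per kilobase.

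Cdh1, the E-cadherin of epithelia, was at 0.567, 0.621 and 0.271 CPM, or 9, 10 and 4 counts. Ocln, Cldn7 and Cldn1, genes of tight junctions, were also under 1 CPM in each library. Cdh2, the N-cadherin, stood at 36.2, 26.8 and 10.2 CPM, above Cdh1 per kilobase (3.02 ± 1.63 against 0.106 ± 0.0412). Of all 23 genes with cadherin symbols, a family read after the values were seen, 4 were present. Of 12 epithelial identity factors 4 were present, led by Elf3 at 44.3, 134 and 109 CPM and Ehf at 98.6, 87.4 and 35.8 CPM, both ETS-family transcription factors. The splicing factor Esrp2 stood at 44.9, 32.1 and 81.4 CPM while its relative Esrp1 was at 0, 0 and 0.203 CPM. Ovol2 and Ap1m2 were not detected.

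Of 22 transcription factors of the mammary lineage, 8 were present (36.4%, beside 48.2% of protein-coding genes) and 10 had 0 counts in all 3 libraries, as had 6476 of the 21918 protein-coding genes. Those at 0 were Gata3, Elf5, Tfap2c, Sox10, Snai2, Bcl11a, Bcl11b, Id4, Hey1 and Cited1. Gata3 and Elf5 are defining factors of the luminal lineage. Those present were Cbfb, Tbx3, Sox9, Stat5a, Lmo4, Stat5b, Nfib and Foxa1. Tbx3, needed for the mammary bud and also known from fetal liver, stood between 203 and 252 CPM, and Sox9 at 105, 124 and 150.1 CPM.

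Basal genes were near the limit of detection. Of 14 basal and myoepithelial markers only Krt14 was present, at 3.66, 8.64 and 15.0 CPM, while a limit of 5 CPM left 0 and one of 0.5 CPM gave 3. Without Ctrl 1, and likewise without Ctrl 2, 2 of 14 were present. Krt5 stood at 0.945, 1.18 and 2.23 CPM and Trp63 at 0.126, 0.373 and 0.271 CPM. Smooth muscle actin, Acta2, had 1, 0 and 0 counts and Cdh3, the P-cadherin, had 0. In bulk RNA, fewer cells of a type and less RNA per cell cannot be told apart.

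**Figure D2:**
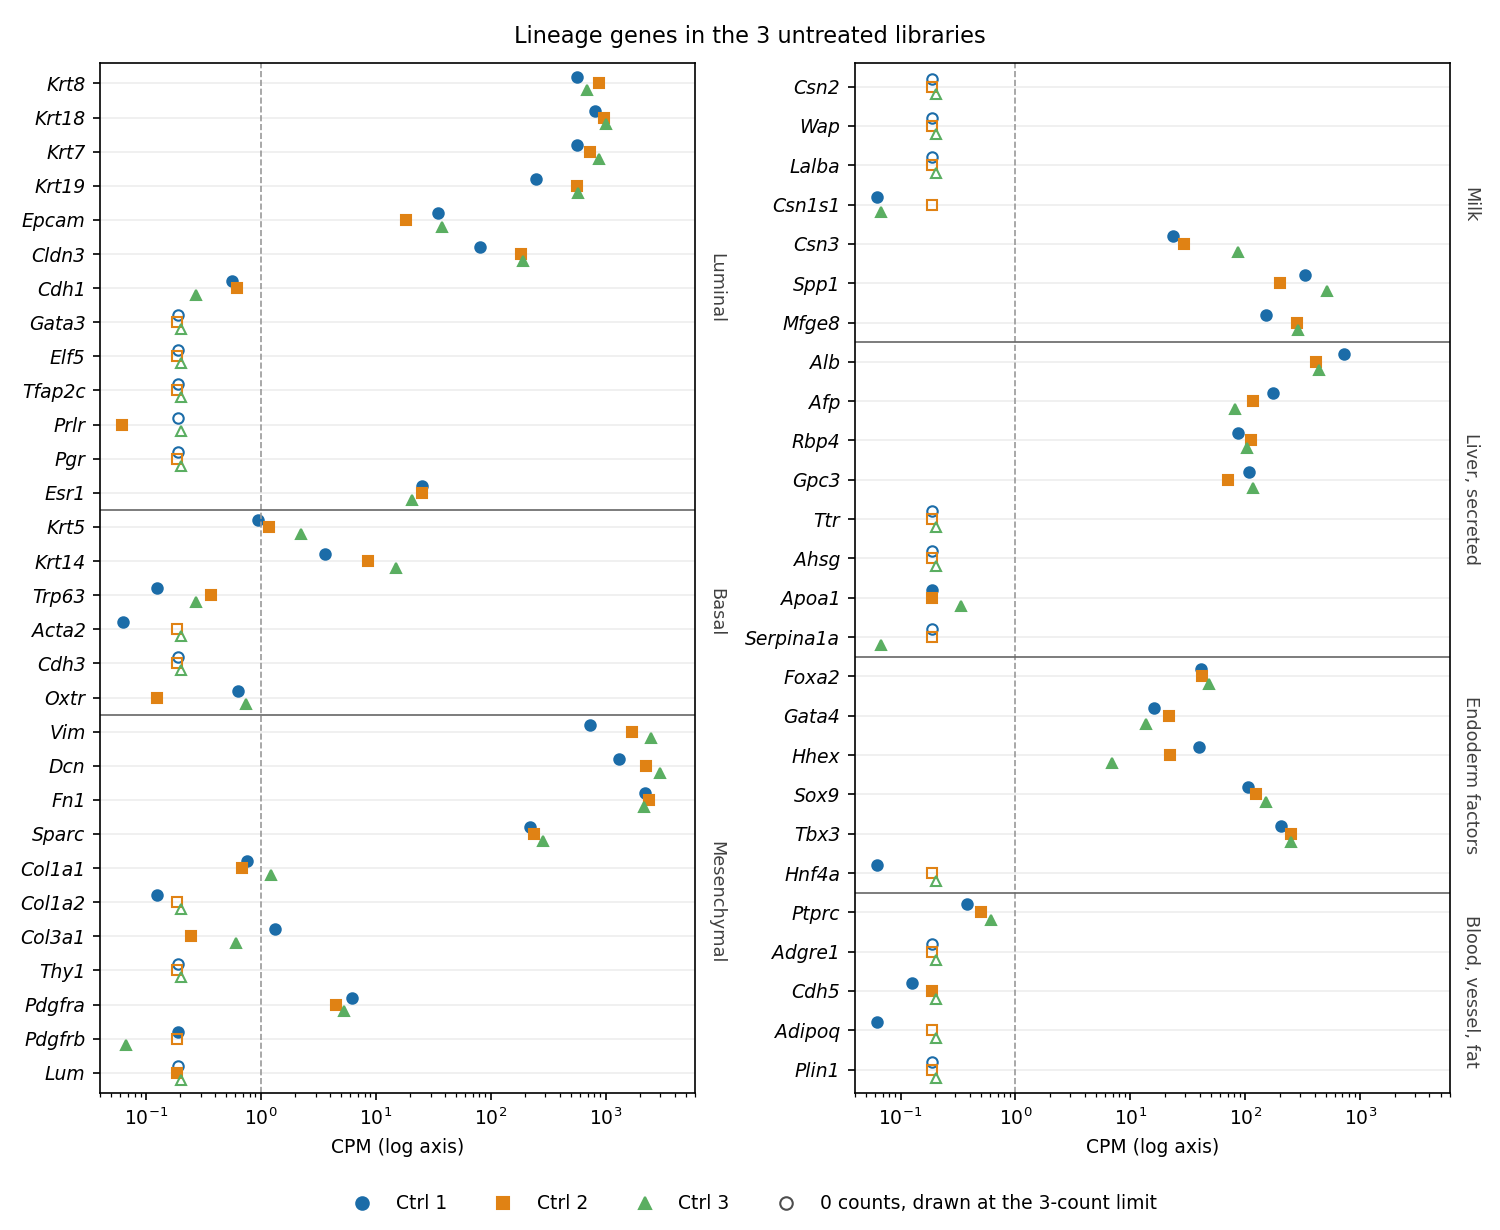
CPM (log axis) of lineage genes in Ctrl 1, 2 and 3. Open symbols are 0 counts drawn at the value of 3 counts and the dashed line is 1 CPM. Rows differ in gene length, so only libraries within a row are comparable. Luminal keratins, Vim, Dcn, Fn1 and Alb lie far above the line, and Gata3, Elf5, Csn2, Wap and Ttr are at 0 throughout.

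Some genes linked with mesenchymal cells were abundant, but the list as a whole was not. Of 31 mesenchymal and fibroblast markers 10 were present (32.3%), under the 48.2% of protein-coding genes. The matrix proteoglycan Dcn (chr10:97479609-97518143) stood at 1314, 2227 and 2965 CPM and vimentin, Vim (chr2:13573927-13582826), at 732, 1698 and 2476 CPM, each lowest in Ctrl 1 and highest in Ctrl 3. Per kilobase, Dcn at 371 ± 142 and Vim at 345 ± 184 CPM per kilobase were close to Krt8, though the longest transcript as the length raised Vim to 559. Fn1 stood at 2223, 2370.4 and 2170.3 CPM, Sparc at 219, 236 and 284 CPM and the surface protein Ly6a at 268, 475 and 384 CPM.

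The fibrillar collagens of fibroblasts were nearly missing beside them. Col1a1 stood at 0.756, 0.683 and 1.22 CPM, Col1a2 at 0.126, 0 and 0 and Col3a1 at 1.32, 0.249 and 0.609 CPM. Pdgfra was present at 6.24, 4.47 and 5.35 CPM while Pdgfrb and Lum were near 0. Thy1, Col5a1, Col6a2, Fbln2, Postn, Pi16 and Prrx1 were not detected. The summed level of the 31 markers was 4883, 7063 and 8338 CPM. This sum contains Vim and Dcn, so its rise is not separate from theirs. Of 44 collagen genes, read as a family after the values were seen, 9 were present. The basement membrane chains led, Col4a1 at 103, 97.9 and 164 CPM and Col4a2 at 54.7, 73.4 and 131 CPM. Col14a1 came next per kilobase, at a mean of 11.3 against 13.0 for Col4a2.

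Transcription factors of the epithelial-mesenchymal transition numbered 6 present of 12. Zeb1, which represses Cdh1, stood at 50.7, 36.4 and 35.3 CPM and Snai1, a zinc-finger repressor of the same gene, at 4.73, 5.84 and 3.59 CPM. Tcf4 at 355, 231 and 187 CPM, Tcf3, Zeb2 and Twist2 were the others present. Twist1, Snai2, Foxc2 and Prrx1 had 0 counts in all 3 libraries.

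Markers of other cells that a mammary culture could hold were mostly low. Of 24 blood and immune markers 4 were present, Cd68, Cd14, Itgam and Csf1r. The lysosomal gene Cd68 stood at 8.63, 46.9 and 92.4 CPM, whereas the pan-leukocyte gene Ptprc stood at 0.378, 0.497 and 0.609 CPM and the macrophage gene Adgre1 was at 0, as were Cd3g, Ms4a1, Cd8a, Cd4, Tyrobp, Kit and Cpa3. The summed level of these 24 markers was 27.4, 70.3 and 118 CPM. Of 12 endothelial markers 3 were present, led by the junction gene Esam at 30.5, 38.6 and 25.8 CPM, and the 12 summed to 37.4, 62.9 and 47.5 CPM. Cdh5 stood at 0.126, 0.186 and 0 CPM, Kdr at 0.630, 0.249 and 0.135 CPM and Erg, Emcn and Cldn5 were at 0.

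Of 12 fat cell markers 3 were present. Lpl, the lipoprotein lipase, stood at 369.5, 382 and 280.3 CPM, but Adipoq stood at 0.0630, 0 and 0 CPM, Fabp4 at 0, 0 and 0.135 CPM and Plin1, Cfd and Lep at 0. Of 10 pericyte and smooth muscle markers 2 were present, and of 12 neural and glial markers 3, none above 10 CPM in a library. Rbfox3, Snap25, Olig2 and Sox2 were not detected.

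Genes known from liver were present in part. In the list of liver and muscle markers, 3 of 12 were present (25%, beside 48.2% of protein-coding genes). Albumin, Alb (ENSMUSG00000029368, chr5:90460897-90476602), stood at 729, 409 and 441 CPM, highest in Ctrl 1, and at 225 ± 75.1 CPM per kilobase lay at percentile 98.4 of present genes. Alpha-fetoprotein, Afp (ENSMUSG00000054932, chr5:90490737-90508907), stood at 175, 116 and 81.7 CPM, or 36.9 ± 14.0 CPM per kilobase by the deposited length and 60.3 by the longest transcript. The cardiac troponin Tnnt2 was the other member present, at 17.9, 53 and 44.8 CPM. Ttr, Myog, Myod1, Actc1 and Myh7 were not detected. Apoa1 and Serpina1a were under 1 CPM in each library, and the 12 genes summed to 922, 579 and 569 CPM.

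Because Alb and Afp were seen, further lists of liver, gut and other organs were read after the values were known. Of 40 secreted and metabolic liver genes 8 were present (20.0%). Beside Alb and Afp they were the retinol carrier Rbp4 at 86.8, 112 and 103 CPM, the urea cycle enzyme Ass1 at 114, 125 and 85.9 CPM, Apoe, Itih2, Fetub and Apoa2. At 0 were Ttr, Itih1, Ahsg, Vtn, Serpina1b, Otc, Pck1, Fbp1, G6pc, Cyp3a11 and Cyp2e1. The share present was under that of protein-coding genes.

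Transcription factors of the endoderm, the germ layer of gut and liver, numbered 13 present of 22 (59.1%), beside 48.2% of protein-coding genes, in a list chosen after the values were seen. Foxa2, a pioneer factor of endoderm, stood at 41.5, 42.0 and 48.3 CPM and differed little between libraries. Gata4 stood at 16.0, 21.5 and 13.7 CPM and Hhex at 39.2, 22.3 and 6.91 CPM, the last with a wide range. Cebpa, Cebpb, Onecut2, Nr1h4, Nr5a2, Prox1, Foxa1, Foxa3 and Sox9 were also present. Foxa1 and Sox9 are in the list of mammary lineage factors too, so the lists are not separate. Hnf4a, a central factor of hepatocytes, had 1, 0 and 0 counts.

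Of 11 genes known from fetal liver and stem cells 8 were present (72.7%, beside 48.2% of protein-coding genes), in a list chosen after the values were seen. Tbx3 among them is also counted as a mammary lineage factor, and Lgr5 among the Wnt, Notch and hedgehog receptors. The Wnt target Axin2 stood at 334, 306 and 417 CPM, the glypican Gpc3 at 108, 71.1 and 116 CPM and the stem cell receptor Lgr5 at 201, 147 and 94.2 CPM, highest in Ctrl 1. The RNA-binding proteins Igf2bp1, Igf2bp2, Igf2bp3 and Lin28b were present as well, and the imprinted genes H19, Dlk1 and Igf2 were at 0. Of 12 intestinal genes 4 were present, among them villin, Vil1, at 73.0, 61.1 and 60.7 CPM and Krt20. Cdx2, a defining intestinal factor, stood at 0, 0.186 and 0 CPM. Of 19 lung, pancreas and kidney genes 2 were present, and of 8 germ and pluripotent cell genes 0.

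Position genes of the Hox family were mostly low or not detected. Of 39, 6 were present and 22 had 0 counts. Hoxa10 led at 34.2, 38.5 and 17.8 CPM, and the genes of the Hoxd cluster (Hoxd1, Hoxd3, Hoxd4, Hoxd8, Hoxd9, Hoxd10, Hoxd11, Hoxd12 and Hoxd13) were all at 0. Xist, expressed from an inactive X chromosome, stood at 1861, 1678 and 2153 CPM. The Y-linked Ddx3y, Eif2s3y, Kdm5d, Uty, Zfy1, Usp9y and Sry were all at 0.

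Promoter sequences are shown for 4 secreted-protein genes, Alb and Afp (present) and Csn2 and Wap (not detected). Because the labels name no lactogenic hormone, the lack of Csn2 and Wap is not set against the label. Each window runs from 250 bases before to 50 bases after the RefSeq start, 5′ to 3′ on the gene's strand, from RefSeq on build GRCm38.p6. The windows lie at chr5:90460620-90460919 (+), chr5:90490464-90490763 (+), chr5:87699376-87699675 (-) and chr11:6638600-6638899 (-). Capitals mark TTCNNNGAA, the core of the STAT5 site, which relays the prolactin signal to milk genes.
Alb: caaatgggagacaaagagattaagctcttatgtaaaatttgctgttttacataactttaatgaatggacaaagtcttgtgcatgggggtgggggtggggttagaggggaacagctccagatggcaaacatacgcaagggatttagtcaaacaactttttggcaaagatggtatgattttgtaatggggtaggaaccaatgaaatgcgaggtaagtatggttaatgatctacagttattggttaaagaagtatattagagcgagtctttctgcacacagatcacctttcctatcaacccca
Afp: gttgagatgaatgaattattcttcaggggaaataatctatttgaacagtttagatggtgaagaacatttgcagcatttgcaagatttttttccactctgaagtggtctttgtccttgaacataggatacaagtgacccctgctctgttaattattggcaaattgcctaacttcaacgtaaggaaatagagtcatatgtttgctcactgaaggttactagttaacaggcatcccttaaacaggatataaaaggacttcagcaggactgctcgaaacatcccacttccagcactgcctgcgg
Csn2: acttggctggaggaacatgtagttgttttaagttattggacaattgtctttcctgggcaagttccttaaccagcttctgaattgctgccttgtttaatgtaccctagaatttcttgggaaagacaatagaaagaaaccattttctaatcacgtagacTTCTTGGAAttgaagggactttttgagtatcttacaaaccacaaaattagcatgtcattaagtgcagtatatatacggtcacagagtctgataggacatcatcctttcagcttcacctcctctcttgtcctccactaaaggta
Wap: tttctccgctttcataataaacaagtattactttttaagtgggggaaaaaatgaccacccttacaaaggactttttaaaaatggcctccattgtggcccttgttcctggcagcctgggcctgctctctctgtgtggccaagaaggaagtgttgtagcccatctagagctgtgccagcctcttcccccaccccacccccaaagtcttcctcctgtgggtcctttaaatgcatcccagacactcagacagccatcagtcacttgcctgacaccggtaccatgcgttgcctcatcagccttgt
Both strands were searched for this 1 motif, which reads the same on both. TTCNNNGAA was found in the Csn2 window at position -93 from the start, and in 8.30% of all 32851 windows of this length. The Alb, Afp and Wap windows held no match. These are letter matches and were not tested for binding.

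Of 21 milk and secretory genes 8 were present (38.1%, beside 48.2% of protein-coding genes) and 9 were not detected. Those at 0 were Csn2, Csn1s2a, Csn1s2b, Wap, Lalba, Glycam1, Olah, Lpo and Wfdc18, among them beta-casein, whey acidic protein and alpha-lactalbumin. Csn1s1, the alpha-casein, had 1, 0 and 1 counts. Kappa-casein, Csn3, was the only casein present, at 23.3, 29.3 and 85.9 CPM, highest in Ctrl 3.

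The other milk-list members present are also expressed outside the gland. The phosphoprotein Spp1 stood at 328, 202 and 512 CPM, the lipid droplet coat Plin2 at 275, 328 and 196 CPM and the milk fat globule protein Mfge8 at 151, 283 and 289 CPM. Trf, Aldoc, Xdh and Btn1a1 were lower, down to 1.01 ± 0.527 CPM per kilobase for Btn1a1, the butyrophilin of milk fat globules.

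RNA of the kinase and the transcription factors that can relay prolactin was present, but that of its receptor was not. Whether prolactin signalling works in these cells was not tested. Prlr had 0, 1 and 0 counts, and its relative, the growth hormone receptor Ghr, stood at 4.98, 5.41 and 4.2 CPM. The kinase Jak2 stood at 260.4, 271 and 335 CPM, Stat5a at 93.1, 109 and 92.8 CPM and Stat5b at 66.0, 66.5 and 38.7 CPM. In all, 15 of 17 JAK and STAT genes were present. Stat4 was at 0 and Socs1, a feedback inhibitor, at 0.693, 0.186 and 0.609 CPM. Stat6, Ptpn11 and Jak1 were the other members high per kilobase.

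Of 35 nuclear receptors 24 were present (68.6%, beside 48.2% of protein-coding genes). The glucocorticoid receptor Nr3c1 led per kilobase at 41.1 ± 3.73 CPM per kilobase and stood at 336, 299 and 281 CPM, with little spread. The clock gene Nr1d2, the oxysterol receptor Nr1h2, the retinoic acid receptor Rarg, Esrra and Nr1d1 came next per kilobase, between 18.0 and 7.88. The oestrogen receptor Esr1 stood at 25.5, 25.3 and 20.7 CPM, or 1.74 ± 0.200 CPM per kilobase by the deposited length and 3.75 by the longest transcript. The progesterone receptor Pgr and the receptors Esr2, Rarb, Ppara, Rxrg and Nr2f1 were not detected.

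Of 43 receptor tyrosine kinases 21 were present (48.8%), close to the 48.2% of protein-coding genes. The ephrin receptor Epha2 led at 270.5, 317 and 400.2 CPM, or 70.5 ± 14.1 CPM per kilobase. Met, the receptor of hepatocyte growth factor, stood at 133, 138 and 128 CPM and Axl at 123, 129.8 and 121 CPM, both steady between libraries. Ddr2, a collagen receptor, stood at 243, 246 and 131 CPM, with Ctrl 3 apart from the others. Ephb4 and Ryk completed the 6 highest per kilobase.

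In the EGF receptor family, Erbb3 stood at 53.4, 70.6 and 74.0 CPM, Egfr at 49.4, 37.3 and 49.6 CPM and Erbb2 at 16.8, 13.1 and 11.8 CPM. Per kilobase their order was Erbb3 at 11 ± 1.83, Egfr at 4.01 ± 0.619 and Erbb2 at 2.67 ± 0.497 CPM per kilobase. In the 3 libraries Egfr was at 4.36, 3.30 and 4.38 and Erbb2 at 3.23, 2.52 and 2.27 CPM per kilobase, so their ranges did not overlap but nearly met. Erbb4, which acts in lactation, was at 0, as were Kit and Flt3. The insulin receptor Insr stood at 44.1, 60.5 and 76.0 CPM while Igf1r, its relative, stood at 0, 0.497 and 0.271 CPM. Fgfr1 stood at 67.9, 78.4 and 37.4 CPM and Fgfr2, which is needed for mammary bud growth, at 0.819, 0 and 0.135 CPM.

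Of 34 cytokine and lactogenic receptors 23 were present (67.6%, beside 48.2% of protein-coding genes). Tnfrsf12a, the TWEAK receptor, led per kilobase and stood at 87.2, 96.5 and 269 CPM, highest in Ctrl 3. The interferon gamma receptor Ifngr1 stood at 129, 129 and 219.5 CPM. Lifr, which binds leukaemia inhibitory factor, stood at 354, 312 and 364 CPM, and its partner Il6st at 142, 70.6 and 94.8 CPM. Tnfrsf1a, Ltbr and Ifngr2 were the other high members. Il7r, Il1rl1, Csf2rb, Csf3r and Tnfrsf11a, the RANK receptor of mammary progenitors, were not detected.

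**Figure D3:**
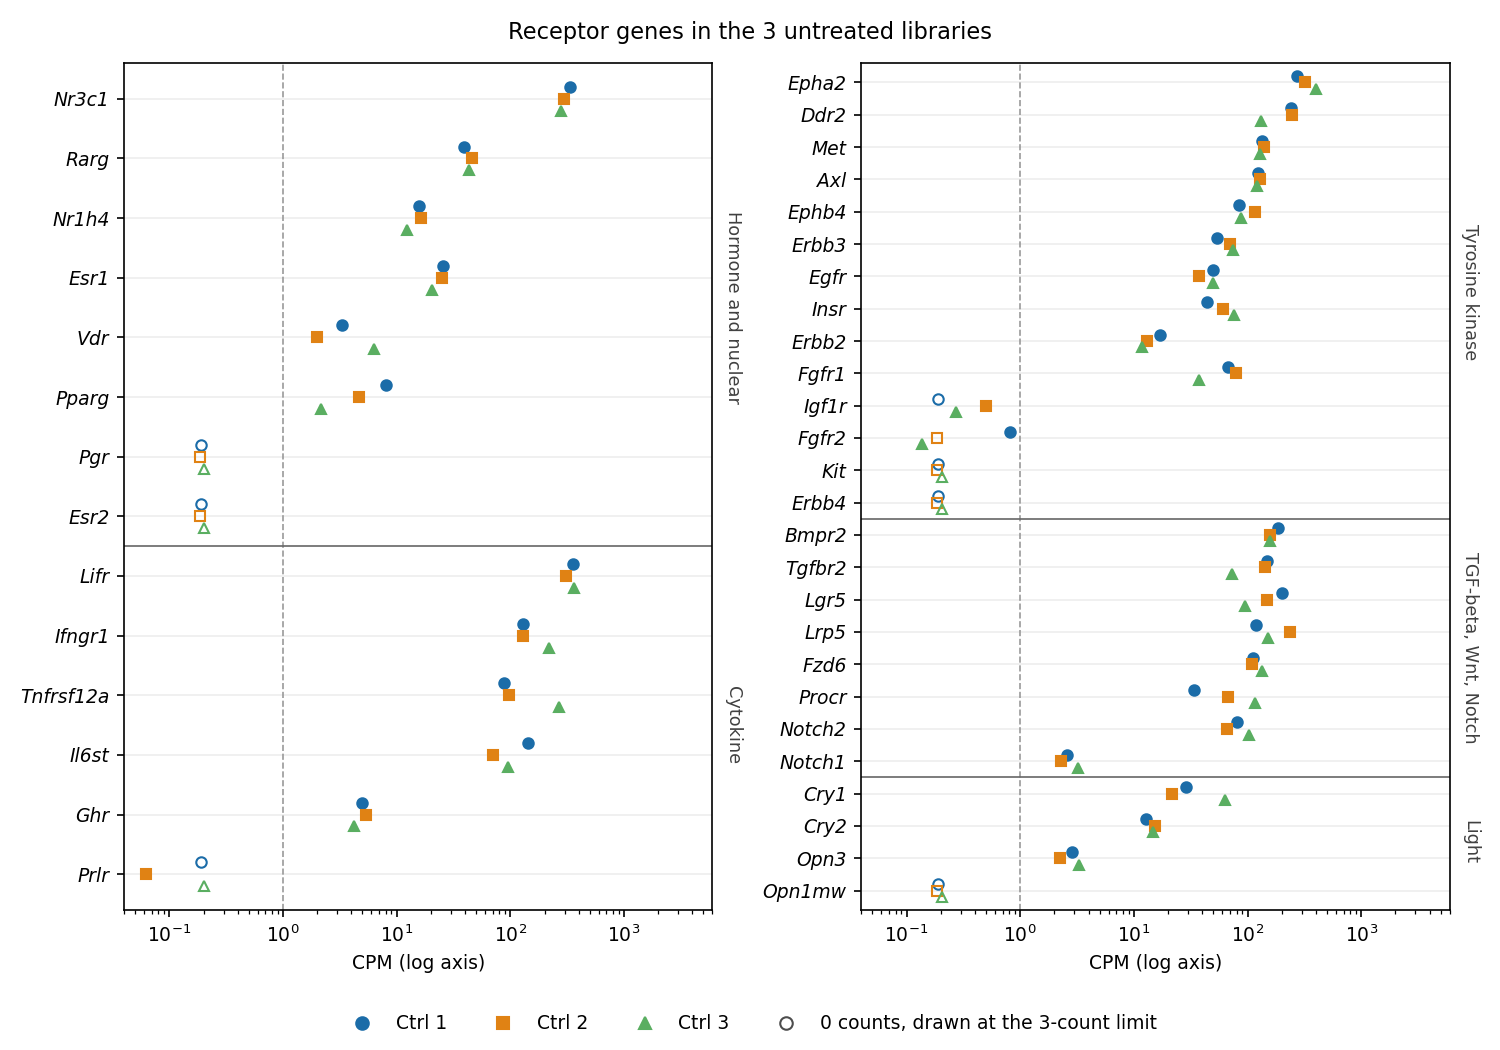
CPM (log axis) of receptor genes in Ctrl 1, 2 and 3, with open symbols for 0 counts drawn at the value of 3 counts and a dashed line at 1 CPM. Only libraries within a row are comparable. Nr3c1, Lifr and Epha2 lie above 250 CPM in each library, and Pgr, Esr2, Kit and Erbb4 are at 0.

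Of 14 receptors of the TGF-beta family 9 were present, led per kilobase by Bmpr1a, Tgfbr2, Tgfbr1 and Acvr1. Tgfbr2, the type II receptor of TGF-beta, stood at 149, 143 and 72.3 CPM, lowest in Ctrl 3. Bmpr2 stood at 186, 157 and 159 CPM and Acvr2a at 61.8, 28.1 and 55.5 CPM. Of 24 Wnt, Notch and hedgehog receptors 16 were present. Procr, a receptor also known from mammary stem cells, stood at 33.7, 66.9 and 115 CPM, lowest in Ctrl 1 and highest in Ctrl 3 as Vim and Dcn were, and the frizzled receptors Fzd6, Fzd1 and Fzd7 and the coreceptor Lrp5 were close per kilobase. Notch2 stood at 81.5, 65.4 and 103 CPM and Notch1 at 2.58, 2.30 and 3.25 CPM. Fzd3, Fzd9 and Ptk7 were at 0.

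Of 50 G protein coupled receptors 11 were present (22.0%), under the share of protein-coding genes. Gprc5a, an orphan receptor induced by retinoic acid, led at 121, 198 and 218 CPM. The lipid receptors S1pr1 and Lpar6, the zinc receptor Gpr39 and the nucleotide receptor P2ry2 were among those next per kilobase. S1pr1 stood at 83.9, 47.2 and 26.8 CPM. The oxytocin receptor Oxtr stood at 0.630, 0.124 and 0.745 CPM. At 0 were Drd1, Drd2, Htr1b, Htr7, Adrb1, Adora2b, Ptger2, Ptger3, Ptgir, Ptgfr, F2rl3, Lpar3, Ccr1, Ccr2, Casr, Ednra and Ednrb.

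Genes of the opsin and cryptochrome families were read in the untreated libraries only. Whether any of them senses the light used in the series was not tested. Of 10 opsins and cryptochromes 4 were present. Cry1, a clock repressor of the cryptochrome family, stood at 28.7, 21.8 and 62.8 CPM, highest in Ctrl 3, and Cry2 at 12.7, 15.3 and 14.8 CPM. Opn3 stood at 2.84, 2.24 and 3.32 CPM and Opn1sw, the short-wave cone opsin, at 1.07, 1.06 and 2.10 CPM, at the limit of being called present. The other cone opsin, Opn1mw, and Opn4, Opn5 and Rgr were not detected.

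Receptors for the matrix were mostly present, 21 of 28. The beta-1 integrin Itgb1 stood at 915, 997 and 1185 CPM and the hyaluronan receptor Cd44 at 688, 987 and 1077 CPM. The laminin receptor subunit Itga6 stood at 266, 583 and 689.5 CPM, lowest in Ctrl 1. Bcam, Itga3 and Sdc4 were the next highest per kilobase, and Itga9 and Sdc3 were at 0.

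Of 75 growth factor and cytokine ligands 34 were present (45.3%), close to the 48.2% of protein-coding genes. Vegfa, the angiogenic factor, stood at 47.8, 126 and 1015 CPM and so led the list per kilobase only through Ctrl 3. Kitl, the ligand of the receptor Kit that was not detected, stood at 566, 382 and 408 CPM. The chemokine Ccl2 stood at 66.5, 91.3 and 47.9 CPM, the EGF receptor ligand Hbegf at 114, 85.6 and 178 CPM and Pdgfa at 128, 152 and 164 CPM. Cxcl16 was the remaining leader. Not detected were Nrg2, Ereg, Hgf, Fgf10, Igf2, Il1b, Tnf, Tnfsf11, Osm, Wnt4, Wnt1, Shh, Cxcl12 and Cxcl14, among them the progesterone-driven mammary signals Wnt4 and Tnfsf11.

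Cell cycle genes were nearly all present, 27 of 28. Mki67, a nuclear protein of cycling cells, stood at 794, 694 and 854 CPM and Pcna at 448, 459 and 402 CPM. The cyclin Ccnd1 stood at 444, 319 and 108 CPM and the DNA replication helicase gene Mcm7 at 380.4, 329 and 118 CPM, both lowest in Ctrl 3. Cdk4, Top2a, Mcm3 and Rrm2 were the other high members, and Ccnd2 was at 0. The summed level of the 28 genes was 6789, 5927 and 3753 CPM, lowest in the library with the largest mitochondrial share, whose part in this was not tested.

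Of 13 inhibitors and p53-axis genes 11 were present. Trp53 stood at 177, 175 and 82.7 CPM, its inhibitor Mdm2 at 277, 289 and 499 CPM and its target Cdkn1a at 146, 227 and 204 CPM. Cdkn2b and Mdm4 were among the highest per kilobase, and Cdkn2a, which encodes p16 and p19Arf, stood at 8.07, 10.6 and 5.76 CPM. Cdkn1c and Trp73 were at 0. All 20 reference genes were present, but Gapdh, often used as a control, stood at 36.4, 574 and 806 CPM. The 2 pseudogenes named after Gapdh summed to 0.126, 0.249 and 0.0677 CPM in Ctrl 1, 2 and 3. Whether other copies share reads with Gapdh was not tested, so its level is uncertain.

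The median over all members of a list, with those at 0 included, sets the lists against the whole table. It was 0.395 CPM per kilobase over all protein-coding genes. It was 306 for luminal keratins, 33.2 for cell cycle genes, 12.5 for integrins and matrix receptors, 4.07 for JAK and STAT genes and 3.22 for cytokine receptors. Nuclear receptors had a median of 1.68, receptor tyrosine kinases of 0.232, milk genes of 0.118 and mesenchymal markers of 0.110 CPM per kilobase. Basal markers, at 0.0713, and mammary lineage factors, at 0.00339, were lowest of the lists named here.

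**Figure D4:**
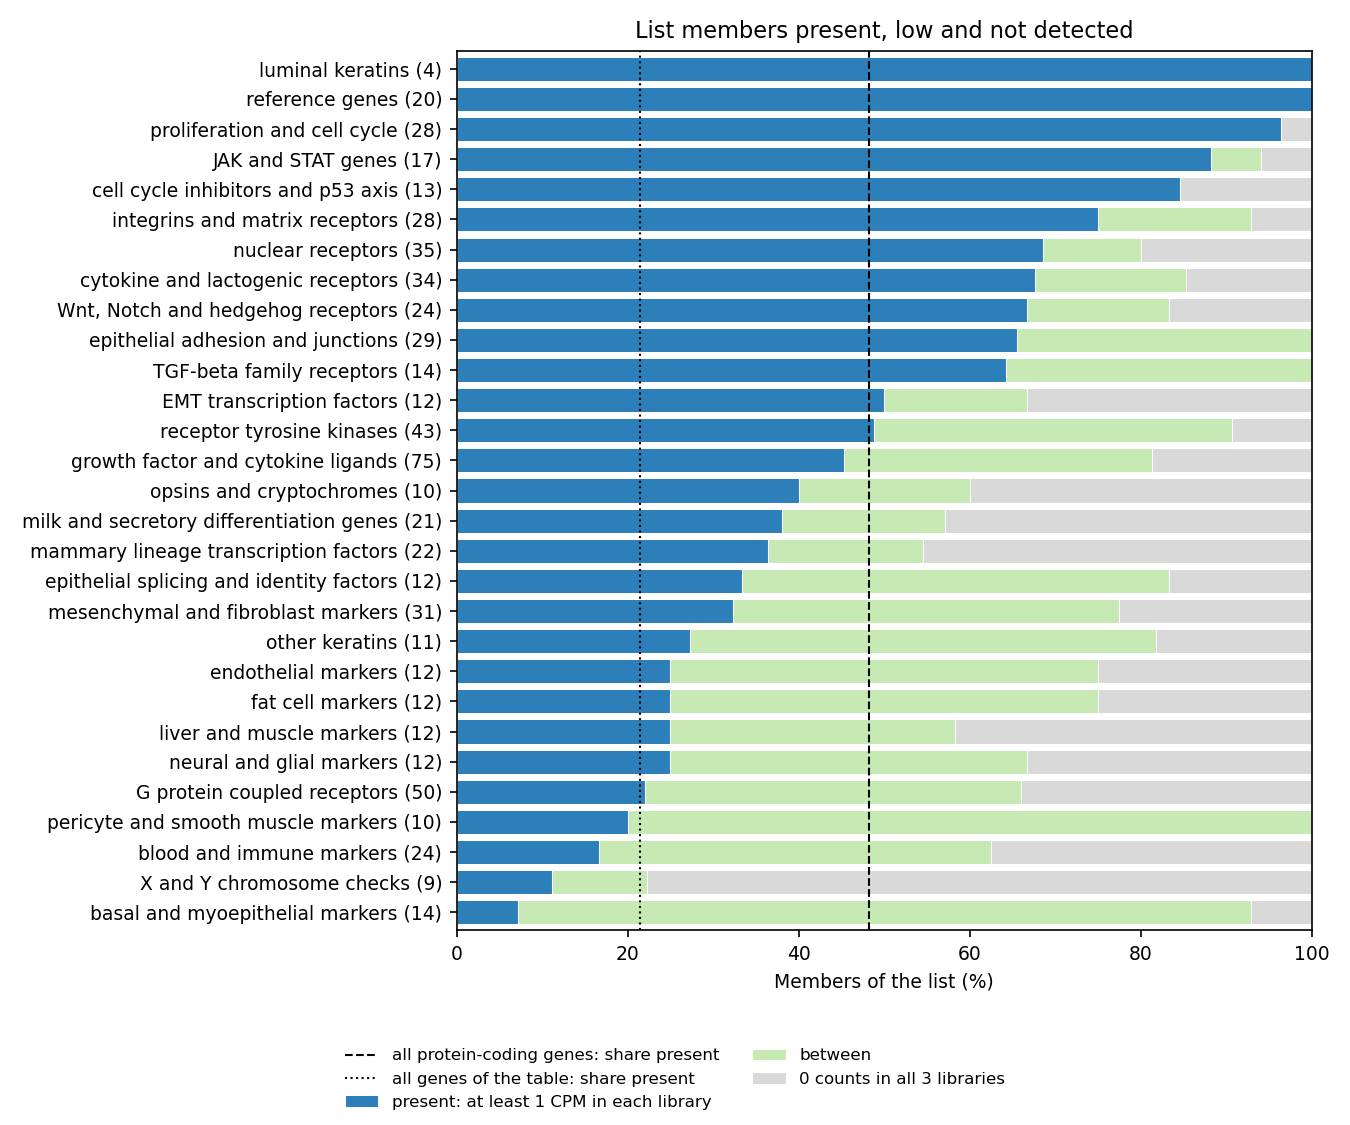
Percent of the members of each list present (at least 1 CPM in each library), between, or at 0 counts in all 3, with list sizes in parentheses. Dashed and dotted lines mark the shares present among protein-coding genes (48.2%) and all genes (21.4%). Luminal keratins, reference genes and cell cycle genes are near full, and basal markers are lowest.

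The 3 libraries were not equally alike. Pearson's r of log2 CPM across the 11676 present genes was 0.964 for Ctrl 1 and 2, 0.938 for Ctrl 2 and 3 and 0.913 for Ctrl 1 and 3, a description across genes, which are not independent. Over genes with a mean of at least 1 CPM, the median coefficient of variation was 28.9%, and without Ctrl 3 it was 16.7%. Of genes with a mean of at least 50 CPM, 4471 in number, 1044 ranged more than 2-fold. Among these 1044, Ctrl 3 was the library farthest from the others in most, low in 508 and high in 241, against 123 low and 112 high for Ctrl 1 and 37 low and 23 high for Ctrl 2.

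The 10 genes of widest range were of mixed function. Ankrd37, a target of the hypoxia factor, stood at 2.39, 3.85 and 157 CPM, a 65.4-fold range. Vegfa, another such target, ranged 21.2-fold. The immediate early phosphatase Dusp1 stood at 44.2, 107 and 834 CPM and the matricellular gene Cyr61 at 316, 123 and 1358 CPM, both highest in Ctrl 3. Gapdh, with a 22.1-fold range, was instead set apart by a low Ctrl 1, and its level is uncertain as said above.

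Others of wide range were the RNA-binding protein Cpeb2 at 29.7, 10.5 and 143 CPM, the zinc exporter Slc30a1 at 99, 22.9 and 215 CPM and the mitochondrial ribosomal RNA mt-Rnr1 at 133, 152 and 1198 CPM. The chemokine Cxcl15 went the other way, at 113, 27.6 and 11.6 CPM, highest in Ctrl 1. In most of these genes the highest value was that of Ctrl 3, the library with the largest mitochondrial share, whose part in them was not tested.

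**Figure D5:**
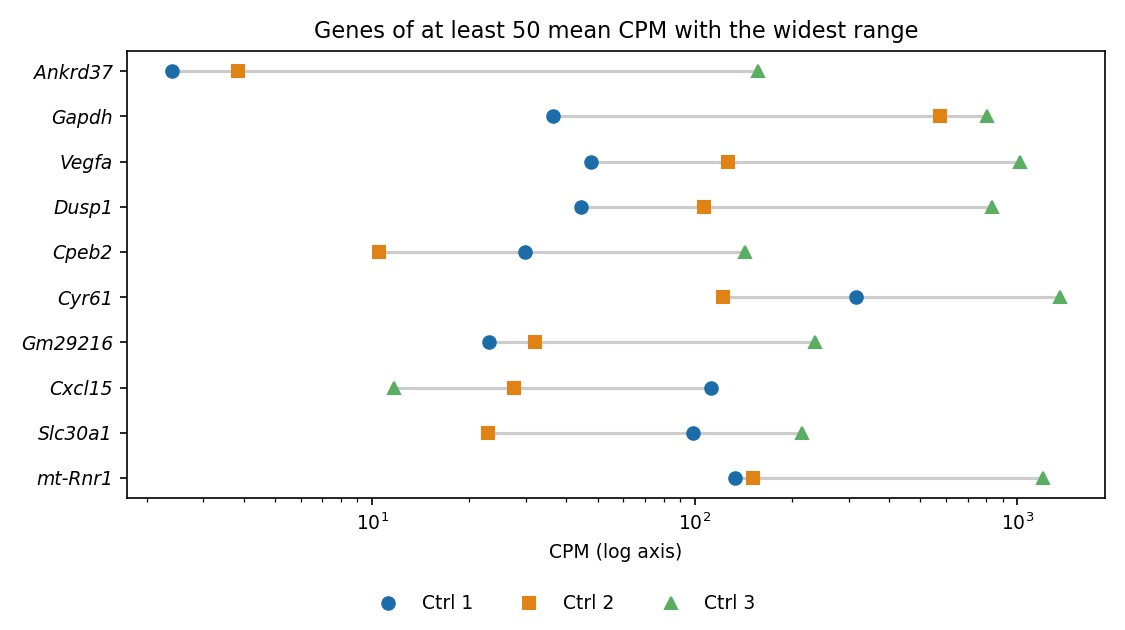
CPM (log axis) in Ctrl 1, 2 and 3 of the 10 genes with a mean of at least 50 CPM and the largest ratio of highest to lowest library. In 7 of the 10 rows Ctrl 3 is the library apart on the high side, while Gapdh is low in Ctrl 1, Slc30a1 low in Ctrl 2 and Cxcl15 high in Ctrl 1.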

How the data were processed

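Whole-number counts per gene were deposited by the authors, with a column per library and a column of gene length. Bowtie 0.12.2 and the build mm8 are named in the submitters' processing notes. The read counter, strand setting and filtering were not given in the sources used here. Gene starts and ends equalled those of GENCODE mouse release 21 (GRCm38) for 98.3% of 54409 matched identifiers, so coordinates are GRCm38, and the length column equalled the summed length of merged exons for 98.0%.

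Only the 3 Ctrl columns were read. CPM used the sum of all gene counts of a library, without further scaling. Means and SD are over 3 libraries, and no groups were tested. In R 4.3.3, edgeR 4.0.16 (TMM sizes and dispersion) and DESeq2 1.42.0 (size factors) gave alternatives, checked on simulated data. Other steps used Python 3.11.15, numpy 2.4.6 and pandas 2.3.3. As a check for 1 library deposited under 2 names only, chi-square per gene between libraries was at least 55.4, and no library was merged with another.

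Named genes were the 30 highest by mean CPM and by CPM per kilobase, in each list up to 6 members highest per kilobase, the defining markers and members at 0, and the 10 genes of widest range at a mean of at least 50 CPM; predicted genes and pseudogenes were counted but mostly not described. Members and the 29 lists (619 genes) were chosen with earlier results of these data known. A further 6 lists and 11 gene families, and genes beyond this rule, were chosen after the values were seen. Without known strand, overlapping antisense genes cannot be told apart. Some genes that the rule names are not reported here, though the counts over lists include them.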

Additional observations from a re-analysis of the deposited data

How the results depend on the processing

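No paired analysis was possible because 1 group was profiled and nothing was compared between groups. The number of genes present was 9341 at a limit of 5 CPM, 12714 at 0.5 CPM and 12782 by the mean of the libraries, 11685 with TMM sizes and 11661 with DESeq2 size factors, and 11882 to 12026 without 1 library. Genes not detected numbered 31833 to 31969 without 1 library and 35961 when up to 3 counts in each library were allowed, a rule added after the data were seen. Genes of the 29 lists present numbered 313, with 253 at 5 CPM, 327 at 0.5 CPM and 315 to 320 without 1 library.

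The share of counts in the 30 most abundant genes was 7.64% with mitochondrial genes left out of the total, against 10.7%, and 9.72% to 11.6% without 1 library. Median CPM per kilobase of present genes was 10.1 with the longest transcript as the length and 23.1 when rescaled to TPM, against 7.58. The overlap of the 30 highest was 17 genes with the longest transcript, and 15 to 16 without 1 library. The median coefficient of variation was 16.7% without Ctrl 3 and up to 30.5% without another library. The cause of each of these moves was not tested.

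Levels per kilobase rest on the length chosen: of 29 results for single genes, 13 moved by more than 1 SD with the longest transcript, and 0 did so with TMM or DESeq2 sizes. Of the 29 lists, 9 changed their number present by more than 1.5 times at 5 CPM, among them G protein coupled receptors (7), opsins and cryptochromes (2) and epithelial-mesenchymal factors (3). Genes at a few counts are near the depth's limit, so a state of not detected means under about 0.2 CPM.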

Other observations

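Some abundant transcripts belong to no list of the text and were picked after their values were seen. A constant segment of the T cell receptor beta chain, Trbc1, stood at 90.2, 96.3 and 52.8 CPM in Ctrl 1, 2 and 3, and Trbc2 at 3.84, 5.41 and 2.37 CPM. The delta segments Trdc and Trdv4 stood at 4.73, 13.5 and 13.6 and 4.47, 17.1 and 10.6 CPM. Cd3e, a chain of the T cell receptor complex, had 1, 1 and 0 counts, and Cd3g and Ptprc were at 0 or under 1 CPM in each library.

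Among long noncoding RNAs, Lncenc1, known from embryonic stem cells, stood at 418, 363 and 104 CPM, lowest in Ctrl 3. Nanog stood at 0.378, 0.249 and 0.135 CPM, and Pou5f1, Sox2 and Lin28a had 0 counts. Malat1, a nuclear RNA of most cells, stood at 274, 607 and 1364 CPM, highest in Ctrl 3.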
